A study of Mus musculus with 4 samples.

Results

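The dentate gyrus of mouse brain sections was compared between brains with and without Pdcd10 in their endothelial cells, using spots of a Visium array, each a small round field of tissue that can hold several cells. A spot was counted as dentate when it held at least 5000 UMIs (unique molecular identifiers, each a counted transcript), ranked in the top 4% of its library by the summed share of Prox1 and C1ql2 among all its UMIs, and held at least 1 UMI of each of these genes. The rule found 398 of 11244 spots of that depth, from 19968 array positions in all: 86 and 97 in the control libraries and 93 and 122 in the knockout libraries. Prox1 (chr1:190118035-190170827) encodes the transcription factor that maintains granule neuron identity, and C1ql2 (chr1:120340582-120343174) a secreted synaptic organiser of mossy fibres, both given in mm10 coordinates. The spots were thus chosen by the measured levels of these genes, which are given as a description and were left out of every test.

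Controls were Pdcd10fl/fl mice and knockouts were Slco1c1-iCreERT2;Pdcd10fl/fl mice, with 2 libraries of each, so both groups carried the floxed gene and differed in the Cre transgene. The Slco1c1 promoter drives Cre in brain endothelial cells and also acts in choroid plexus epithelium. According to the design text, 50 µg of 4-hydroxytamoxifen was given on postnatal day 1 to delete the gene, littermates served as controls, and brains were analysed at P65 under normoxia. The sample titles also read normoxia for controls and knockouts alike. Other labels conflict with this. The treatment label reads hypoxia for both knockouts and normoxia for both controls, so that genotype and oxygen cannot be told apart if it holds. The treatment protocol lists 12% oxygen for 2 days for all samples. The libraries came from 10 µm fresh-frozen sections, and nothing states that they came from different animals, so p-values measure the spread between these libraries, which may be technical.

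The granule neurons of the dentate gyrus receive the cortical input to the hippocampus and send their axons, the mossy fibres, to CA3. They use glutamate, are rich in the calcium buffer calbindin, and carry opioid and other neuropeptides in dense-core vesicles. New granule neurons arise throughout life from stem cells at the inner edge of the cell layer. Pdcd10, also called Ccm3, encodes a small adaptor protein, and its loss from endothelium causes cavernous malformations, which are leaky clusters of widened capillaries.

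The libraries held 50148764 to 74467027 UMIs, and the same array barcodes were listed in each. Member spots of the knockouts were shallower, with median UMIs of 9968 and 13560.5 against 26249 and 28237 in controls, and 35 and 32 of them held only 1 UMI of Prox1 or of C1ql2, against 6 and 4 in controls. Summed over members, the libraries gave 2353497 and 3030551 UMIs for controls and 1334715 and 2260067 for knockouts. Among top-ranked spots, 4 and 5 of the controls and 25 and 16 of the knockouts were dropped for lacking either gene. The last spot inside the limit scored 4.89, 4.42, 3.72 and 3.97 UMIs of the gene pair per 10000, in the order control 1, control 2, knockout 1 and knockout 2, and the first spot outside scored 4.84, 4.396, 3.72 and 3.95. Across genes, log2 levels correlated at 0.976 between the controls, at 0.971 between the knockouts and at 0.888 to 0.913 between groups. Fewer cells of a type and less RNA per cell cannot be told apart in such sums.

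Levels below are CPM, the counts of a gene scaled to a common library total, over the summed member spots, scaled by edgeR's TMM factors, and are named in the order given above. No TMM factor was applied to levels of Prox1 and C1ql2, sums over gene lists, levels by rank of spots and the marker plot. The same holds for Cck, Sst and the CA1 markers outside member spots. Fold changes and their standard errors (SE) come from edgeR's quasi-likelihood test on the sums, n = 2 libraries a group, with Benjamini-Hochberg adjusted p-values over 11995 genes. At an adjusted p of 0.05, 3157 genes (26.3%) differed, 1637 (13.6%) higher and 1520 (12.7%) lower in the knockouts, and 1229 of them by at least 2-fold, with 798 of these higher. The libraries of the groups did not overlap for 63.4% of all genes, so a lack of overlap alone says little.

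Prox1 stood at 275, 213, 243 and 224 CPM in member spots and at 10.9 to 21.8 CPM in the other spots, and C1ql2 at 428, 408, 417 and 376 CPM against 26.0 to 33.9 CPM. A further 12 granule neuron markers, which the rule did not use, summed to 2424, 2150, 1914 and 1991 CPM in member spots. In the other spots of the same libraries they summed to 518 to 623 CPM. Within this list the knockouts were lower for 8 genes and higher for 2, against 12.7% and 13.6% of all genes, and the median log2 fold change was -0.87. A choice of spots by 10 of the 12 markers picked 60, 74, 51 and 64 of the 86, 97, 93 and 122 members. Lct, the lactase gene that marks granule neurons of the dorsal dentate, was at 35.9 and 36.9 CPM in controls and at 0.756 and 3.07 CPM in knockouts, a fall of 4.01 on the log2 scale (SE 0.38, adjusted p = 2.16e-07). Without knockout 2 the change was -5.49. Calb1 (chr4:15881264-15906709), the calbindin gene, was at 579.6 and 488 CPM against 202 and 229 CPM (0.406-fold, adjusted p = 3.06e-07). When spots were chosen by 10 of the other markers, the log2 change of Calb1 was -1.30. In the knockouts its level in member spots was no longer above the 223 and 259.5 CPM of the other spots.

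Other granule markers fell by less than Lct. Trpc6, a calcium-permeable channel, stood at 73.1 and 46.2 CPM against 24.2 and 15.3 CPM, a fall of 1.64 on the log2 scale, and Plk5, a polo-like kinase of neurons, fell by 1.497 from 57.9 and 51.5 CPM to 21.9 and 17.5 CPM. The desmosome gene Dsp fell by 0.93, Stxbp6, a regulator of SNARE complexes, by 0.82 and Fam163b by 0.72. Rasl10a, a Ras-like gene, was at 326 and 236 CPM against 427 and 426 CPM (log2 0.61, adjusted p = 0.00253), but with each spot thinned to 5000 UMIs the change was 0.22 (adjusted p = 0.414). Npnt and C1ql3, an adhesion gene and a relative of C1ql2, had log2 changes of 0.28 and 0.34 that did not pass. Synpr, a synaptic vesicle gene, passed at an adjusted p of 0.0491 and was lost under 12 of 17 alternatives. The marker plot shows these genes in dentate and other spots.

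**Figure D1:**
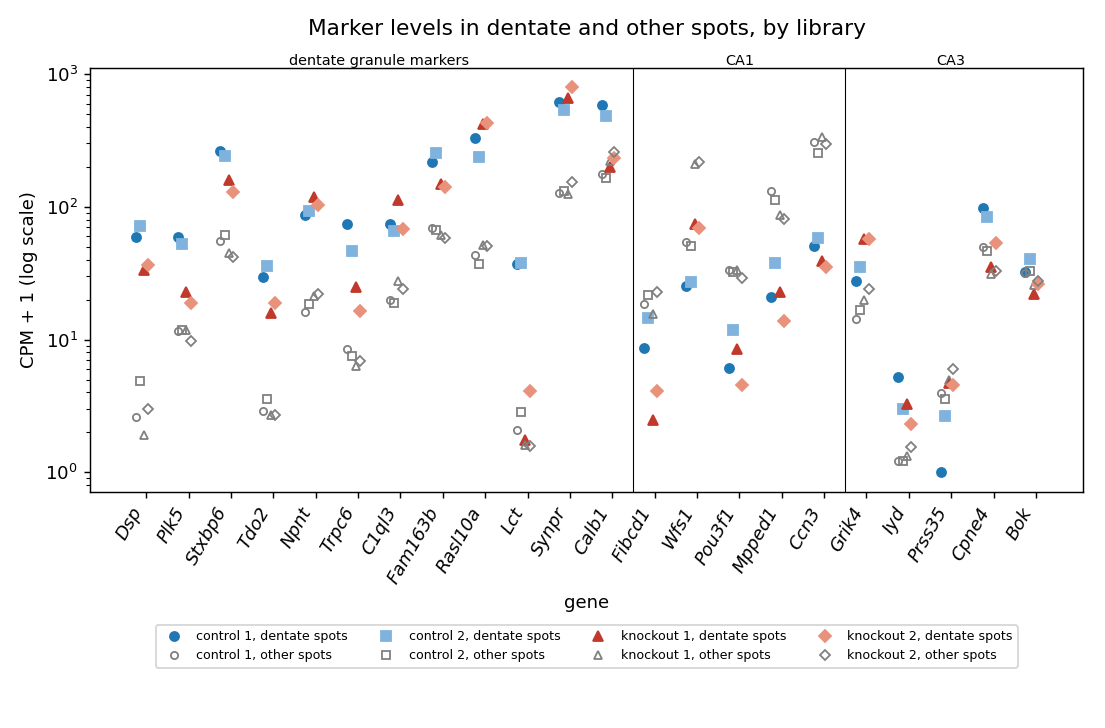
Levels of granule neuron, CA1 and CA3 marker genes in each library, as CPM + 1 on a log scale, with filled coloured symbols for dentate spots and open grey symbols for all other spots of at least 5000 UMIs. All 12 granule markers lay above the other spots in every library, except Calb1 in both knockouts, and Lct in dentate spots of knockout 1 rests on 1 UMI.

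Markers of neighbouring fields were checked beside this. The 5 CA1 markers summed to 107, 144, 142 and 122 CPM in member spots against 467 to 676 CPM in the other spots. Among them, Wfs1, an endoplasmic reticulum membrane gene, rose from 24.1 and 26.2 CPM to 73.4 and 67.0 CPM, while it stood at 209 and 216 CPM in the other spots of the knockouts. Fibcd1 and Ccn3, the CA1 markers that fell, had log2 changes of -2.10 and -0.57, and both missed the threshold under DESeq2 and without control 2. Rgs14, a CA2 gene that limits synaptic plasticity, fell from 77.7 and 76.4 CPM to 16.6 and 20.1 CPM. Of the CA3 genes, Grik4, a kainate receptor subunit, rose by 0.86 on the log2 scale and Cpne4, a copine, fell by 0.99. Calb2, the calretinin gene of mossy cells, was at 191 and 282 CPM against 60.5 and 106 CPM, a fall of 1.46, while Ociad2, another mossy cell marker, rose from 30.4 and 49.8 CPM to 71.9 and 69.6 CPM. The position of the sections along the hippocampus is not given. Trhr, a ventral granule marker that was added after its values were seen, had a log2 change of -0.95 (adjusted p = 0.0232), and Nr2f2, another ventral gene added in the same way, one of 0.05.

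Penk rose more than any other neuronal gene of the list of neuropeptides and secreted factors. The gene (chr4:4133536-4138815) encodes proenkephalin, the precursor of opioid peptides, and stood at 24.1 and 33.2 CPM in controls and at 1523 and 1591 CPM in knockouts. The rise was 53.7-fold (log2 5.75, SE 0.16, adjusted p = 8.07e-15). In the list of 18 tested genes, 11 rose and 3 fell, against 13.6% and 12.7% of all genes, with a median log2 change of 0.96, and 10 or 11 rose under each of the 17 alternatives. Npy, which encodes neuropeptide Y, was at 137 and 164 CPM against 709.6 and 845 CPM (5.16-fold, adjusted p = 1.8e-10). Bdnf, a neurotrophin, was at 77.7 and 66.4 CPM against 191 and 192 CPM (2.67-fold, adjusted p = 1.81e-07).

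Further genes of this list rose. Scg2, the secretogranin II gene, a component of dense-core vesicles, rose 3.89-fold from 319 and 283 CPM to 1127 and 1214 CPM. Vgf, another granin, rose 2.04-fold, from 80.7 and 115 CPM to 213 and 189.6 CPM. Sorcs3, a sorting receptor of neurons, was at 14.4 and 13.9 CPM against 94.6 and 71.8 CPM (5.77-fold), and Nptx2, a pentraxin that gathers AMPA receptors, at 17.7 and 19.6 CPM against 81.7 and 65.7 CPM (3.87-fold). Gal, the galanin gene, was lower in both groups, at 3.38 and 9.96 CPM against 24.2 and 40.3 CPM, a log2 change of 2.25 that reached 3.28 without control 2.

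The genes of this list that fell were Cck, Pdyn and Sst. Cck, which encodes cholecystokinin, dropped from 1105 and 1129.8 CPM to 123 and 233 CPM (0.163-fold, adjusted p = 5.81e-09). It was also lower in the other spots of the knockouts, at 1154 and 909 CPM in controls against 527 and 628 CPM. Pdyn, the precursor of dynorphin, the opioid peptide typical of mossy fibres, was at 53.2 and 50.5 CPM against 18.2 and 23.2 CPM (0.410-fold, adjusted p = 9.66e-05), so proenkephalin and prodynorphin transcripts moved in opposite directions in the same spots. Sst, an interneuron peptide gene, fell by 0.87 on the log2 scale, and by 1.48 without knockout 2, but it missed the threshold under DESeq2, with thinned spots and in the top 2% of spots. In the other spots Sst was at 694 and 545 CPM against 390 and 421 CPM. Adcyap1 and Pcsk1, a peptide gene and a peptide-processing enzyme, had changes of -0.25 and 0.03 that did not pass, and their libraries overlapped.

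Several of these genes carry a cyclic AMP response element (CRE) close to the start site. The full palindrome TGACGTCA, the same on both strands, was searched in the 250 bases before each start site in RefSeq's promoters of build GRCm38.p6. Of the 18 tested list genes 13 had a promoter entry, while Penk had none and was not searched. The element was found in 4 of the 13, against 3.16% of 9498 tested genes and 1.55% of 32851 promoters. Of these 4, Scg2 rose, as did Chgb, a granin gene named here after its values were seen (log2 0.89), Sst fell and Pcsk1 did not pass. The windows of all 4 are shown, each read 5′ to 3′ on the strand of the gene with the element in capitals, because they hold one motif in genes that did not move together. They are chr1:79440067-79440114 (minus strand) for Scg2, chr2:132781550-132781597 (plus) for Chgb, chr16:23890865-23890912 (minus) for Sst and chr13:75089759-75089806 (plus) for Pcsk1.
Scg2: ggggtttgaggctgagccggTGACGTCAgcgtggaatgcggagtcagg
Chgb: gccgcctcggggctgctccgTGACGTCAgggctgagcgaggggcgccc
Sst: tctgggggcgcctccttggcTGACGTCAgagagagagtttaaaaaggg
Pcsk1: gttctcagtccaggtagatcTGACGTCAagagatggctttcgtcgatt
The element lay 68, 72, 48 and 78 bases before the start site in this order. A match describes the letters of these windows and is no measure of binding.

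Large differences were also found in neuronal genes outside this list. Rprm, the cell cycle regulator reprimo, was at 92.9 and 77.05 CPM against 951 and 973 CPM (11.4-fold, adjusted p = 8.04e-13). Rgs4, which shortens G protein signals, was at 82.0 and 109 CPM against 568 and 568 CPM, and Sv2c, a synaptic vesicle glycoprotein gene, at 26.2 and 24.6 CPM against 177 and 168 CPM. Among the largest falls, Capn3, a calpain protease gene, went from 92.9 and 61.1 CPM to 2.27 and 4.82 CPM, a fall of 4.28 on the log2 scale, or of 5.04 without knockout 2. Transcription factor genes fell with it: Prdm8 by 2.50 from 202 and 178 CPM to 24.2 and 39.9 CPM, Lmo1 by 2.49, and Bhlhe22 by 2.13 from 357 and 302 CPM to 71.1 and 78.4 CPM. Frzb, a secreted Wnt antagonist, fell by 2.70, Igfbp5, an IGF-binding protein gene, by 2.49, Kcnf1, a modulatory potassium channel subunit, by 2.56, and Gfra2, the neurturin receptor, fell by 2.41. The plot of neuronal genes shows the libraries of these groups apart for each gene it includes.

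**Figure D2:**
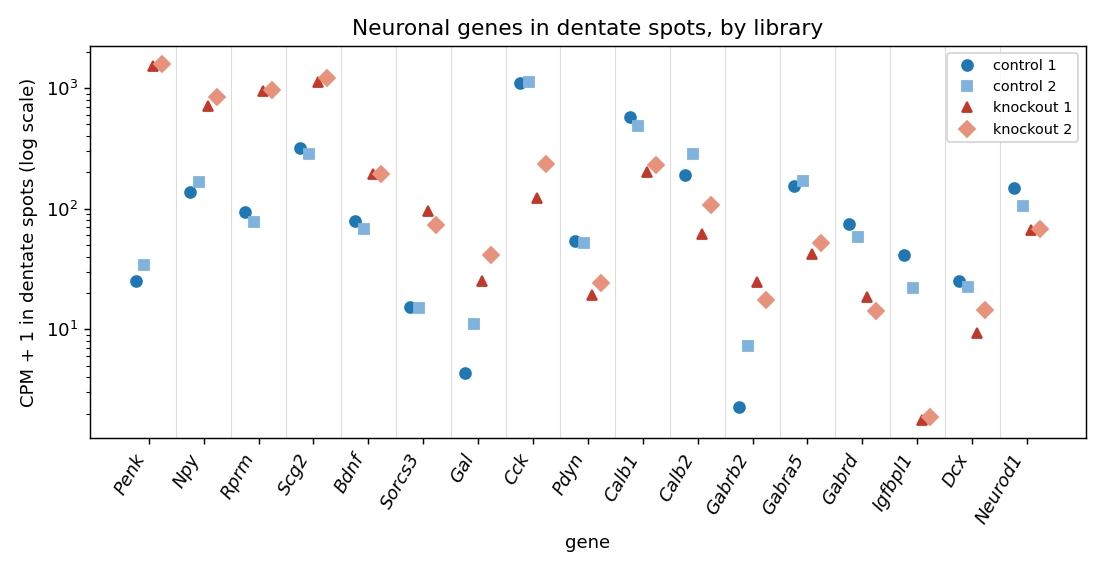
Levels of 17 neuronal genes in dentate spots, as CPM + 1 on a log scale, with 1 symbol for each of the 2 control and 2 knockout libraries. Penk, at 24.1 and 33.2 CPM in controls and 1523 and 1591 CPM in knockouts, has the widest gap among the genes that rose, and Igfbpl1 among those that fell.

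Of 22 genes of calcium buffering and signalling, 9 fell, none rose and 13 did not pass, against 12.7% lower and 13.6% higher among all genes, with a median of -0.21. The falls included Nrgn, the neurogranin gene, which binds calmodulin, at 1537 and 1712 CPM against 734 and 757 CPM (0.459-fold, adjusted p = 9.2e-07). Itpr1, the IP3 receptor of the endoplasmic reticulum, was at 77.3 and 93.3 CPM against 43.1 and 37.7 CPM, and Ryr3, a ryanodine receptor, at 36.3 and 22.9 CPM against 7.56 and 11.8 CPM. The count of falls was 5 without knockout 2 and 4 with spots thinned to 5000 UMIs, 1 gene rose without knockout 2 and 2 without control 2.

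Of 12 GABA-A receptor subunits, the chloride channels of inhibition, 4 rose and 3 fell, against 13.6% and 12.7% of all genes. Gabrd, the delta subunit of extrasynaptic receptors on granule neurons, fell from 74.3 and 57.1 CPM to 17.4 and 13.1 CPM (0.227-fold, adjusted p = 8.76e-07). It also fell outside, from 32.1 and 30.6 CPM to 8.99 and 8.57 CPM in spots ranked at 16 to 100% by the Prox1 and C1ql2 share. Gabra5, also largely extrasynaptic, fell from 153 and 169 CPM to 40.9 and 51.2 CPM (0.291-fold, adjusted p = 5.04e-08). Gabrb2 was at 1.27 and 6.31 CPM against 23.5 and 16.6 CPM, a rise of 2.26 that was 1.60 without control 1 and 3.87 without control 2, and Gabrb1 rose by 0.52. The 4 rises shrank to 1 without knockout 2, under DESeq2 and with thinned spots.

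Excitatory receptor genes were lower where they passed the test, with 1 exception. Of 14 AMPA, NMDA and kainate subunits, 6 fell and 1, Grik4, rose, with a median of -0.47. The shares of all genes, 12.7% lower and 13.6% higher, are the measure for this list and the synaptic lists below. Grin2c, an NMDA receptor subunit, was at 21.5 and 27.9 CPM against 9.08 and 8.76 CPM (0.358-fold, adjusted p = 0.00104), and Gria1, an AMPA receptor subunit, at 532 and 617 CPM against 407 and 389 CPM (0.692-fold, adjusted p = 0.00247). The falls numbered 3 without knockout 1 and 4 without knockout 2. Of 18 postsynaptic scaffold genes 4 fell and none rose, among them Lrrtm4, an organiser of granule neuron synapses, from 101 and 92.3 CPM to 43.9 and 45.5 CPM, and Ddn, dendrin, from 525 and 624 CPM to 345 and 389 CPM. Of 20 presynaptic vesicle genes 7 rose and 1 fell, with Sv2c above and Vamp1, a SNARE gene, at 55.3 and 81.7 CPM against 171 and 161 CPM, and the rises ran from 5 to 12 when 1 library was left out, the 12 without control 2.

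Of 26 ion channel genes 4 rose and 2 fell, which is near the 13.6% and 12.7% of all genes. Scn3b, a sodium channel beta subunit, fell from 339.6 and 299 CPM to 117 and 128 CPM (0.387-fold, adjusted p = 1.56e-07). Kcnma1, the BK potassium channel gene, rose by 0.86 on the log2 scale. The count of higher genes was 8 without control 2 and 2 without knockout 1. Slc17a7, the vesicular glutamate transporter of granule neurons, and Gad1, a GABA-synthesis enzyme of interneurons, showed no called change. Slc17a7 was at 821 and 875 CPM against 1024 and 1032 CPM (adjusted p = 0.0800), and Gad1 at 352 and 347 CPM against 343 and 342 CPM (adjusted p = 0.874).

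Immediate early genes, which neurons switch on within minutes of firing, went both ways. Of 23 tested, 7 rose and 7 fell, against 13.6% and 12.7% of all genes, with a median log2 change of 0.18. The falls included Egr1, from 50.3 and 62.4 CPM to 28.7 and 27.2 CPM (0.491-fold, adjusted p = 0.000539), Egr4, by 1.74 on the log2 scale, and the nuclear receptor genes Nr4a1 and Nr4a3, by 1.40 and 1.64. Klf4, a transcription factor gene of endothelium and other cells, rose from 2.96 and 3.99 CPM to 17.4 and 13.1 CPM. Arc and Junb, at 16.9 and 29.2 CPM against 12.9 and 15.8 CPM and at 35.9 and 41.5 CPM against 60.5 and 40.7 CPM, did not pass. The 7 rises fell to 2 without knockout 2, 3 without knockout 1 and 0 with thinned spots, and Nr4a3 changed by -2.30 without knockout 2.

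Genes of adult neurogenesis differed in part. Igfbpl1 (chr4:45809507-45826827), a marker of young neurons, gave 95 and 63 UMIs in the controls and 1 and 2 UMIs in the knockouts, or 40.1 and 20.9 CPM against 0.756 and 0.876 CPM. The ratio of the summed rates, controls over knockouts, was 35.3 with an exact 95% counting interval of 11.9 to 173 that covers counting error only. In the neurogenesis list 6 of 15 genes fell, 1 rose and 8 did not pass, against 12.7% lower and 13.6% higher among all genes, with a median of -0.20. Sox11, a factor of young neurons named here after its values were seen, was among those that did not pass, at 80.7 and 52.5 CPM against 72.6 and 59.6 CPM. Neurod1, a differentiation factor, fell from 147 and 105 CPM to 65.8 and 67.4 CPM (0.532-fold, adjusted p = 0.000355), and Hopx, a stem cell gene also expressed by granule neurons and astrocytes, from 161 and 132 CPM to 71.1 and 57.4 CPM (0.434-fold, adjusted p = 8.43e-06). Cd24a, a surface gene of neuroblasts, fell by 1.17. Dcx, doublecortin, was at 24.1 and 21.3 CPM against 8.32 and 13.6 CPM (adjusted p = 0.0193), a call that was lost without knockout 1 (adjusted p = 0.141). Nes, which reactive astrocytes also express, rose from 1.27 and 3.32 CPM to 12.1 and 8.32 CPM, and missed the threshold without knockout 1. The falls numbered 4 without control 1, and DESeq2 called 3.

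Nuclear genes of the respiratory chain were lower. For this list and those below in the paragraph, the shares of all genes were 12.7% lower and 13.6% higher. Of 34 genes 18 fell and none rose, with a median of -0.34, and 12 to 22 fell under each alternative. Cycs, cytochrome c, fell from 471 and 409 CPM to 201 and 188 CPM (0.442-fold, adjusted p = 7.54e-07), and Cox6c, a subunit of complex IV, from 2392 and 2044 CPM to 1238 and 1193 CPM. The list summed to 25008 and 23168 CPM against 17789.6 and 17739 CPM. Mitochondrially encoded transcripts took 3.55% and 6.04% of UMIs in controls and 6.19% and 5.15% in knockouts, so that the groups overlapped, and 3 of 13 rose, a count that was 13 without control 2. Chaperone genes were also lower, with 11 of 20 heat shock and endoplasmic reticulum stress genes falling and 3 rising. Pdia6, a disulphide isomerase, fell from 171 and 144 CPM to 49.2 and 51.7 CPM (0.322-fold, adjusted p = 1.22e-07), and Manf, a secreted protein of the same compartment, from 133 and 134 CPM to 75.6 and 64.4 CPM. Hspb1, a small heat shock protein of reactive astrocytes and vessels, rose from 11.8 and 11.6 CPM to 80.2 and 70.9 CPM. The falls of the chaperone list numbered 7 and its rises 1 without knockout 2.

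Glial genes also differed between the groups in these spots. Of 30 reactive astrocyte genes 24 were tested, of which 23 rose and none fell, against 13.6% and 12.7% of all genes. Some, such as Timp1 with 0 and 0 UMIs in controls and 24 and 62 in knockouts, reached the count needed for testing through the knockouts alone. Such genes add no support to the count of rises. The median log2 change was 2.73 against 0.00 for all genes tested. The list summed to 312 and 335 CPM in controls and to 2321 and 2500 CPM in knockouts, and its part in the neuronal changes was not tested. Vim, vimentin, was at 26.6 and 28.9 CPM against 572 and 614 CPM (21.3-fold, adjusted p = 5.45e-14). Gfap, the astrocyte filament gene, was at 62.5 and 69.7 CPM against 399 and 326 CPM (5.44-fold, adjusted p = 1.8e-10), and Serpina3n, a serine protease inhibitor, at 56.6 and 49.2 CPM against 407 and 478 CPM (8.42-fold, adjusted p = 1.37e-11). Lcn2, lipocalin 2, gave 1 and 2 UMIs in controls and 47 and 116 in knockouts, a ratio of 81.1 (exact 95% counting interval 27.2 to 397). The rises numbered 16 without knockout 2 and 12 with thinned spots.

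Of 16 general astrocyte genes 8 rose and none fell, and their summed levels were 3111 and 4103 CPM against 5448 and 4413 CPM. The shares of all genes, 13.6% higher and 12.7% lower, are the measure for this list and the myelin list below. Kcnj10, the Kir4.1 potassium channel that clears extracellular potassium, rose from 43.1 and 74.7 CPM to 204 and 152 CPM (2.94-fold, adjusted p = 6.52e-06), and Slc1a3, a glutamate transporter, from 353 and 397 CPM to 603 and 591 CPM (1.59-fold, adjusted p = 0.000253). The list rose at 13 genes without control 2. Of 14 myelin genes 1 rose and 3 fell, but the sums of 1479 and 3146 CPM in controls and 4044 and 1565 CPM in knockouts overlapped, and between 0 and 7 fell and 1 and 6 rose when 1 library was left out. Apod, the one that rose, was at 71.8 and 145 CPM against 1011 and 409 CPM, a log2 change of 2.68 that was 1.90 without knockout 1 and 3.28 without control 2.

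Phagocyte and complement transcripts rose as well, to be read against 13.6% of all genes higher and 12.7% lower. Of 21 activated phagocyte genes 18 rose and none fell, with a median of 1.17, and 13 rose without knockout 2. Gpnmb, a lysosomal glycoprotein gene, was at 0.845 and 2.32 CPM against 91.5 and 155 CPM, a log2 change of 6.19 (SE 0.34, adjusted p = 1.55e-10) that was 7.12 without control 2. Spp1, osteopontin, was at 4.22 and 6.31 CPM against 55.2 and 437.5 CPM, so that knockout 2 was far above knockout 1, and the log2 change of 5.57 was 3.35 without knockout 2 and 6.33 without knockout 1. After each spot was thinned to 5000 UMIs, 1 spot of knockout 2 alone held 159 UMIs of Spp1. Ctss, cathepsin S, was at 44.8 and 52.8 CPM against 138 and 159 CPM (3.05-fold, adjusted p = 1.21e-07). P2ry12, the purine receptor of resting microglia, fell from 35.5 and 33.2 CPM to 6.05 and 12.7 CPM, a log2 change of -1.75 that was -2.49 without knockout 2, and the homeostatic microglia list had 3 rises and this 1 fall among 12 genes. Complement genes rose at 9 of 11, among them C4b from 13.1 and 19.6 CPM to 139 and 131 CPM and C1qb from 58.7 and 54.1 CPM to 154 and 184 CPM. Of 13 neutrophil genes only 3 were tested, and all 3 rose. The others were too low to test, such as Camp and Ltf with 0 UMIs in every library. S100a8 and S100a9, at 1 or 2 UMIs in each control, reached the count needed for testing through the knockouts alone. Their rise thus adds no support to this count. Pglyrp1, an antibacterial granule protein gene, was at 8.45 and 12.6 CPM against 119.5 and 117 CPM, and S100a8, a calprotectin subunit, gave 1 and 1 UMIs in controls and 31 and 32 UMIs in knockouts.

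Antigen presentation and interferon genes rose from low levels, to be read against 13.6% of all genes higher and 12.7% lower. H2-D1 and H2-K1, the classical class I genes, rose 3.81-fold and 3.87-fold, from 23.2 and 28.2 CPM to 103 and 95.9 CPM and from 19.9 and 30.9 CPM to 89.3 and 109 CPM, and reads of these near-identical genes may be shared between them. Of 21 interferon response genes 12 rose and none fell, with a median of 1.44, and the count was 5 without knockout 2, 4 under DESeq2 and 3 with thinned spots. Ifitm3, which blocks viral entry, was at 14.4 and 17.9 CPM against 93.8 and 109 CPM (6.27-fold, adjusted p = 3.27e-09). Bst2, tetherin, was at 2.96 and 4.65 CPM against 15.1 and 17.5 CPM, and Ifit3, an RNA-binding effector, at 2.11 and 1.33 CPM against 6.05 and 10.9 CPM, a call lost without knockout 2 (adjusted p = 0.181).

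The interferon-stimulated response element (ISRE) core, 2 copies of GAAA set 2 bases apart, was searched on both strands of the same 250 bases. It was found in 8 of 19 list genes with a promoter entry, against 2.94% of tested genes and 2.98% of all promoters, and in 7 of 11 that rose. The windows of Ifit3 and Bst2, which are named above, and of Ifitm2, which rose from 11.8 and 14.3 CPM to 59.0 and 48.6 CPM, are shown to let the element be seen in genes that rose. They are chr19:34583353-34583436 (plus strand), chr8:71537567-71537622 (minus) and chr7:140955978-140956027 (minus) in GRCm38.p6, read on the strand of the gene with matches on either strand in capitals.
Ifit3: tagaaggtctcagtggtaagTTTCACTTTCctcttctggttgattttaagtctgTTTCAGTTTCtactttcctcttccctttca
Bst2: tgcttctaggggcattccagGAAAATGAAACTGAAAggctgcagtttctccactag
Ifitm2: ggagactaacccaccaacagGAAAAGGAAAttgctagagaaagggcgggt
Ifit3 holds 2 separate matches, Bst2 holds 2 that overlap and are read here as 1 run of capitals, and Ifitm2 holds 1. Stat2, not printed, also holds a match, but its levels of 18.6 and 15.3 CPM against 15.9 and 21.9 CPM overlapped. The list is made of interferon response genes, so its share of matches is no result about these spots. As for the CRE, a match is no measure of binding.

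Vascular transcripts in the dentate spots were higher in the knockouts, while Pdcd10 itself was not called. The counts here and in the next paragraph are to be read against 13.6% of all genes higher and 12.7% lower. Pdcd10 (chr3:75516490-75556852) was at 79.8 and 65.1 CPM against 62.8 and 63.1 CPM (adjusted p = 0.379). All cells of a spot contribute to this level while the promoter of the Cre acts in the cell types named above, and whether the tags counted at the 3′ end lie in the deleted part is not given, so the value does not check the labels. Of 14 pan-endothelial genes 8 rose and none fell, a count of 4 without knockout 2 and 5 without control 1. Cldn5, the tight junction gene of brain endothelium, was at 25.8 and 38.9 CPM against 130.1 and 97.7 CPM (3.41-fold, adjusted p = 8.73e-07), and Pecam1, a junction gene of all endothelium, at 5.49 and 7.97 CPM against 19.7 and 20.6 CPM (2.94-fold, adjusted p = 0.00163).

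Genes reported in cavernous malformation endothelium rose at 15 of 18, or 8 without knockout 2. Thbd, thrombomodulin, an anticoagulant receptor, was at 2.96 and 2.66 CPM against 20.4 and 17.1 CPM (6.51-fold, adjusted p = 5.03e-05), and Tagln, transgelin, at 1.69 and 2.66 CPM against 21.2 and 19.3 CPM (8.83-fold, adjusted p = 1.3e-05). Among 16 barrier genes 9 rose and 2 fell, with 3 rises without knockout 1. Slc2a1, the glucose transporter of barrier endothelium and astrocytes, rose from 64.2 and 90.7 CPM to 222 and 204 CPM, and Slco1c1, the thyroid hormone transporter whose promoter drives the Cre, from 33.8 and 55.5 CPM to 127 and 114 CPM. Itm2a, a membrane gene of barrier endothelium, fell from 54.9 and 72.7 CPM to 14.4 and 13.6 CPM. Of 9 mural cell genes 1 rose, near the 13.6% of all genes, and the falls among barrier genes were near the 12.7% of all genes. Acta2, the smooth muscle actin gene, at 7.60 and 13.9 CPM against 16.6 and 8.76 CPM, was not the mural gene that rose. Haemoglobin transcripts were present in all libraries, with Hba-a1 at 227 and 129 CPM against 462 and 860.1 CPM, and their part in the vascular values was not tested.

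Matrix and stress-response genes completed the largest rises. Col6a1, a collagen VI chain, was at 3.80 and 2.99 CPM against 103 and 96.3 CPM (29.2-fold, adjusted p = 3.92e-11), and Fmod, the collagen-binding proteoglycan fibromodulin, at 1.69 and 2.99 CPM against 66.6 and 56.5 CPM (24.7-fold, adjusted p = 1.56e-09). Fbln5, an elastic fibre gene, was at 2.11 and 4.65 CPM against 106 and 120.4 CPM. A2m, a protease inhibitor, was at 0.422 and 2.66 CPM against 85.5 and 91.1 CPM, a log2 change of 5.68 that was 7.51 without control 2. Of 15 genes induced by glucocorticoids 11 rose and none fell, with Cdkn1a, a cell cycle inhibitor, at 3.38 and 3.32 CPM against 71.1 and 49.1 CPM and Sgk1, a kinase, at 39.7 and 55.1 CPM against 194 and 147 CPM, and the rises numbered 7 without control 1. The metallothionein gene Mt1 rose from 1477 and 1726 CPM to 5589.7 and 5089 CPM. Of 16 genes of the hypoxia response 6 rose and 2 fell, with Adm, adrenomedullin, at 1.27 and 1.66 CPM against 9.08 and 15.3 CPM. The shares of all genes were 13.6% higher and 12.7% lower, so the hypoxia list fell at about that share. Whether oxygen differed between the groups is not settled by the labels.

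**Figure D3:**
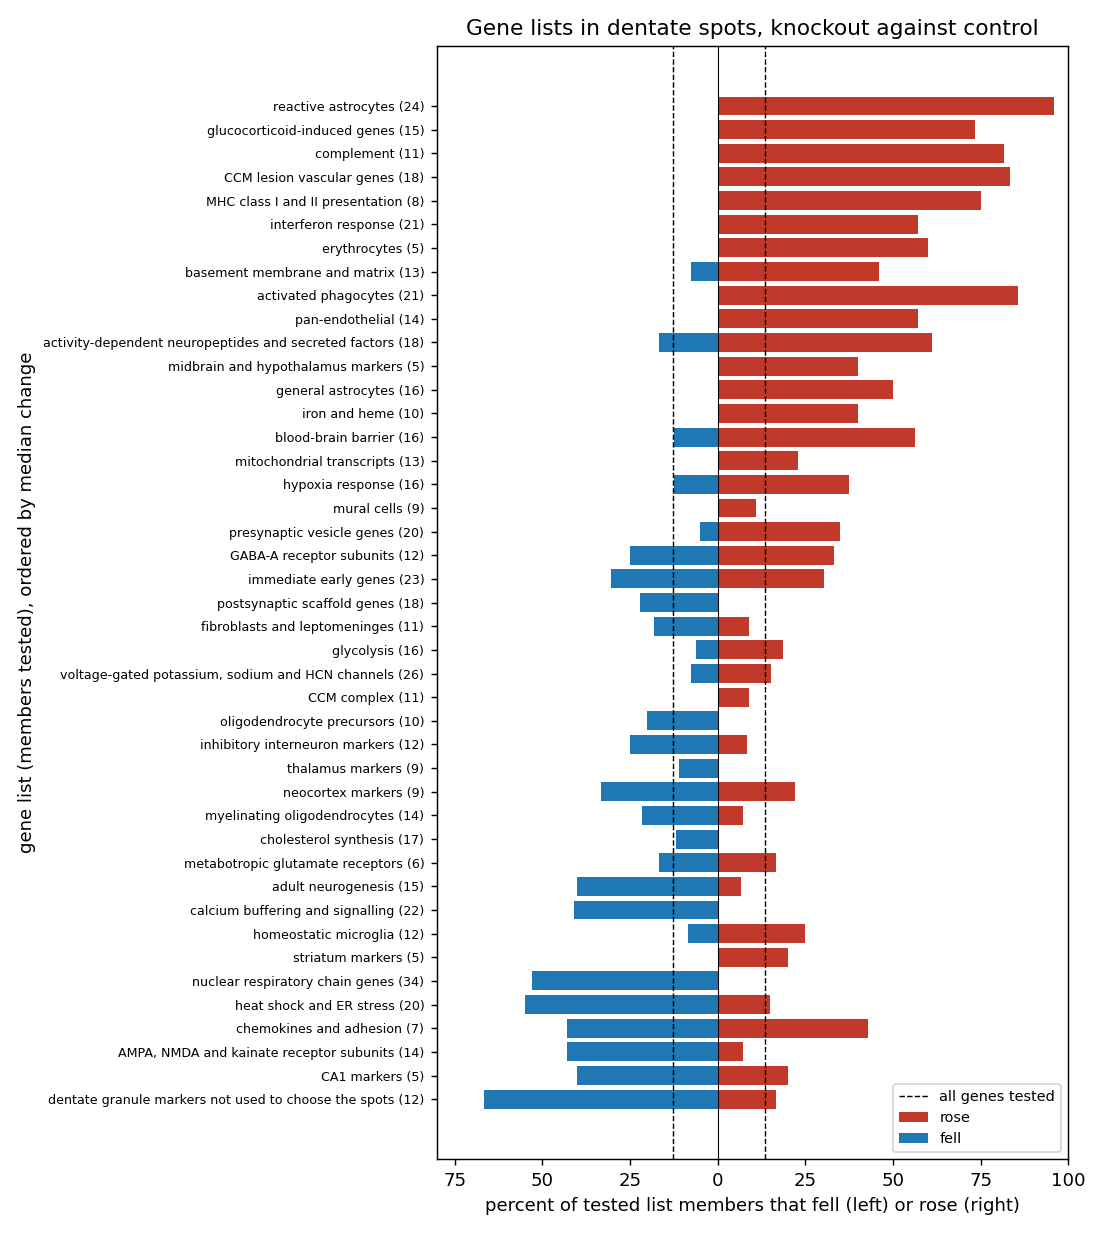
Share of the tested members of each gene list that rose (right) or fell (left) in dentate spots of knockouts, for lists with at least 5 tested members. The number tested is in parentheses and lists are ordered by median log2 fold change. Dashed lines mark the shares of all genes tested, 13.6% higher and 12.7% lower, and 23 of 24 reactive astrocyte genes rose while 8 of 12 granule markers fell.

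To ask which changes differed from those in the rest of the sections, an interaction was fitted on member spots and on all other spots of at least 5000 UMIs of the same libraries, with the library as a block. The change differed for 2014 of 16887 genes (11.9%), 1133 (6.71%) with a higher and 881 (5.22%) with a lower change in dentate spots. With library totals in place of TMM factors the split was 939 higher and 1141 lower of 2080. This fit found no spread of single genes beyond one value shared by all, so its p-values are very small and the sizes are the better guide. The other spots of controls and knockouts also held different tissue, since the sums of the myelin list in them were 9880.2 and 13747 CPM against 7199 and 5680.1 CPM, and the part of this in the differences was not tested.

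Penk had the largest positive difference among called genes with a mean of at least 20 CPM in dentate spots and no predicted symbol, the genes ranked here. In the other spots it was at 79.1 and 69.5 CPM against 211 and 227 CPM, so that its change in dentate spots exceeded the one there by 4.15 on the log2 scale (SE 0.13). In controls dentate spots held less Penk than the rest, and in knockouts more. Fmod followed with 3.78, Col6a1 with 3.33 and Gpx3, a secreted glutathione peroxidase, with 3.24. Rprm (2.93), Rgs4 (2.97) and Gpr83 (2.92), a receptor for a neuropeptide, rose in dentate spots while their levels outside moved by 0.55, -0.43 and 0.01. The negative side held Capn3 (-3.41), Matn2, a matrix protein gene (-2.78), Mcm6, a replication helicase gene (-2.39), and Pdyn (-2.32), which was at 13.7 and 14.8 CPM against 28.3 and 29.2 CPM in the other spots and thus higher there in both knockouts. Calb1 differed by -1.73, with a change of 0.41 outside.

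Glial genes divided in this test. The changes of Gfap (difference 0.19, adjusted p = 0.380) and Mt1 (-0.01, adjusted p = 0.993) were not called different between dentate and other spots. Vim rose more in dentate spots, by 0.91, and Serpina3n less, by 1.60, from control levels of 56.6 and 49.2 CPM in dentate spots against 13.7 and 17.7 CPM elsewhere. Of 30 reactive astrocyte genes 6 had a higher and 2 a lower change, against 6.71% and 5.22% of all genes. Among immediate early genes 15 of 25 had a higher change in dentate spots and 1 a lower one. Egr1 was at 362 and 319 CPM against 71.9 and 64.6 CPM in the other spots, Fos at 132.5 and 109.8 CPM against 23.02 and 22.1 CPM, and Arc at 142 and 140.1 CPM against 25.9 and 21.8 CPM, so these genes dropped outside the dentate more than in it.

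**Figure D4:**
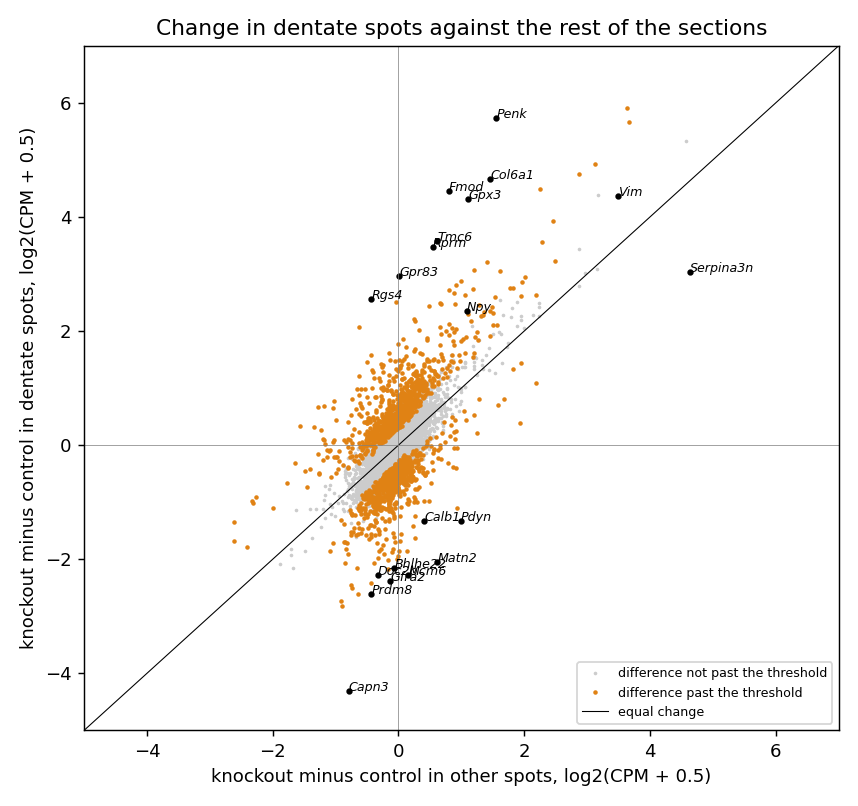
Change in dentate spots (vertical) against change in all other spots (horizontal) of each tested gene with a mean of at least 20 CPM in dentate spots. Both are knockout minus control of the mean log2(CPM + 0.5), with the line of equal change. Genes whose difference passed the threshold are in orange and a few are named in black, and of those named Penk lies highest above the line and Capn3 lowest below it.

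Against CA1, the hippocampal field next in the circuit after CA3, the comparison was narrower. CA1 spots were the top 4% by the share of Fibcd1 and Wfs1 with at least 1 UMI of each, 46 and 60 in controls and 19 and 33 in knockouts. Their own defining genes differed between groups, with Fibcd1 at 218 and 187 CPM against 77.7 and 43.4 CPM and Wfs1 at 152 and 149.9 CPM against 1043 and 1036 CPM. Of the other CA1 markers, Mpped1 was at 268 and 210 CPM against 85.3 and 56.8 CPM, and Ccn3 at 703 and 572 CPM against 637 and 692 CPM. Whether these spots held like tissue in both groups was not tested, so the values below describe the chosen spots. The change differed for 632 of 11783 genes (5.36%), 338 (2.87%) higher and 294 (2.5%) lower in dentate, or 312 higher and 376 lower of 688 with library totals. Penk rose in CA1 as well, from 164 and 96.3 CPM to 648 and 604 CPM, and its dentate change was larger by 3.43 (SE 0.22, adjusted p = 5.11e-11). Rprm was at 76.7 and 86.6 CPM against 72.8 and 95.8 CPM in CA1 and differed by 3.41 (adjusted p = 1.72e-11). Npy went in CA1 from 158 and 153 CPM to 713 and 989 CPM, and its dentate change was not called different (-0.09, SE 0.16, adjusted p = 0.835).

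Pdyn moved in opposite directions in dentate and CA1 spots. It fell in dentate spots and was at 12.3 and 12.0 CPM against 85.4 and 95.8 CPM in the CA1 spots, a difference of -4.19 (SE 0.30, adjusted p = 3.21e-10). Calb1 did so too, with 219.5 and 272 CPM against 449 and 461 CPM in CA1 and a difference of -2.17 (SE 0.17, adjusted p = 1.59e-09). Npy2r, a neuropeptide Y receptor gene, fell in dentate spots from 99.3 and 72.1 CPM to 30.3 and 52.1 CPM and was at 23.8 and 24.5 CPM against 47.7 and 106 CPM in CA1. Fmod and Col6a1 had larger rises in dentate than in CA1, by 4.47 and 3.78. Lhx9, a LIM homeobox gene, and Dcn, the decorin gene, were on the positive side without a called change in dentate, since Lhx9 was at 13.05 and 10.8 CPM against 0 and 0.798 CPM and Dcn at 678 and 499.5 CPM against 50.2 and 28.7 CPM in CA1 spots.

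Spots of one library were compared among themselves after thinning each to 5000 UMIs, as a description, since they share a section. Penk was detected in 10.5% and 9.28% of member spots in controls and in 92.5% and 95.9% in knockouts, with Wilson 95% intervals of 5.604% to 18.7%, 4.96% to 16.7%, 85.3% to 96.3% and 90.8% to 98.2% that cover counting error only. In other spots the shares were 22.2% and 22.4% against 39.7% and 39.7%. Before thinning, the member shares were 45.3% and 52.6% against 96.8% and 98.4%. Nearly all dentate spots of the knockouts thus held the transcript, with medians of 4 and 5 UMIs and highest values of 23 and 20. Igfbpl1 was detected in 13.95% and 8.25% of member spots in controls and in 0 of 93 and 0 of 122 in knockouts, which at this thinned depth allows shares of up to 3.97% and 3.05% by the Wilson interval. Before thinning, its shares were 43.0% and 39.2% against 1.08% and 1.64%. Lct was detected in 19.8% and 23.7% against 0% and 2.46%.

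Levels were also laid out along the rank of the Prox1 and C1ql2 score, beyond the limit of 4%. This is the score that chose the members, so the course of other genes along it is a description and supports nothing. In the knockouts Penk declined from 1573 and 1711 CPM in the top 1% of spots to 971 and 1479 CPM at ranks of 2 to 4%, 375 and 756.5 CPM at 4 to 8% and 199 and 275 CPM at 8 to 16%. In controls it was between 12.0 and 47.2 CPM over the same ranks. Rprm followed the same course in knockouts, from 1066 and 1044 CPM in the top 1% to 119.5 and 148.5 CPM at 8 to 16%. Calb1 declined with rank in controls, from 659 and 572 CPM to 152 and 193 CPM, but in knockouts its levels of 228.5 and 254 CPM in the top 1% and 162 and 196 CPM at 8 to 16% lay closer together. Vim had no such course, with 499 and 542 CPM in the top 1% and 409 and 430.0 CPM at 8 to 16% in knockouts. Across member spots of knockouts, Spearman's rho between the summed other granule markers and Penk was 0.46 over 93 spots and 0.41 over 122 spots, and between these markers and the reactive astrocyte list -0.28 in both, where the spots share library and section and were thinned to 1 depth.

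**Figure D5:**
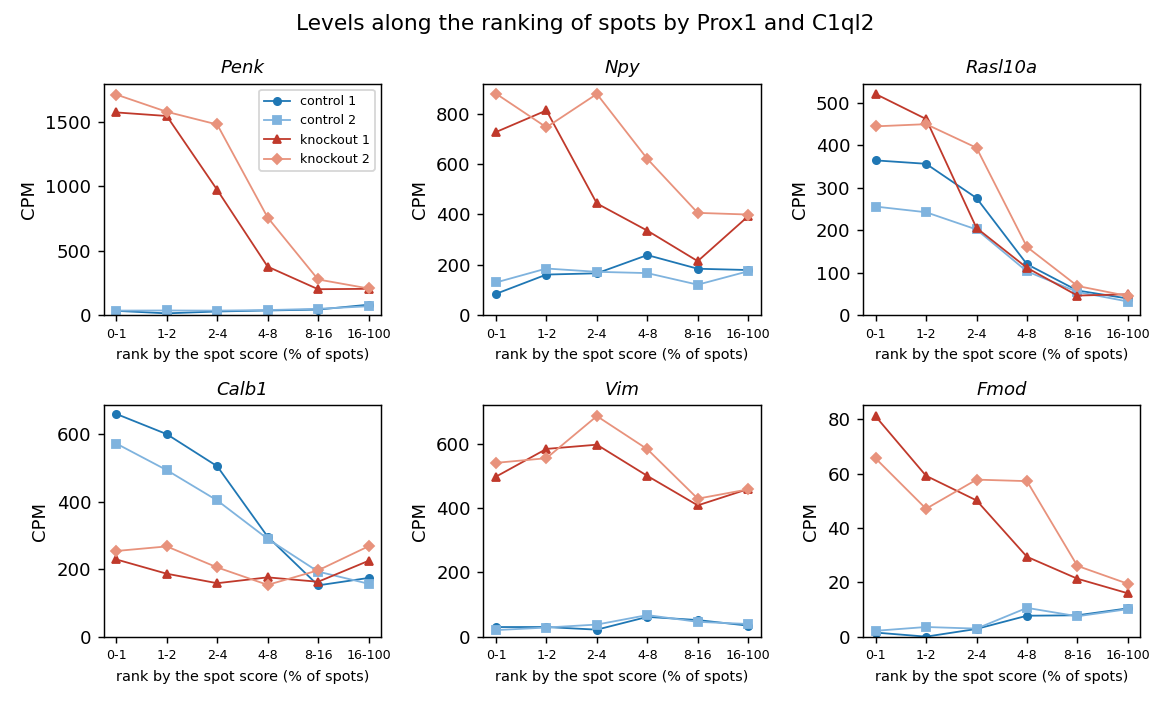
Levels of 6 genes in CPM along the rank of spots by the summed share of Prox1 and C1ql2, in bins from the top 1% to ranks of 16 to 100%, with 1 line for each library. Penk, Npy, Rasl10a and Fmod are highest at the top ranks in knockouts, Calb1 declines with rank in controls, and Vim lies between 409 and 687 CPM at all ranks in knockouts.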

How the data were processed

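Visium gene expression was measured in 4 mouse brain libraries, 2 controls and 2 knockouts, and the deposited matrices hold UMI counts per gene and spot that the authors made with Space Ranger on mm10, per the submitters' processing notes, with Cell Ranger 4 named per the file headers; the version of Space Ranger is not given in the sources used here. Spot positions and images were not used. Counts of member spots were summed per library and tested with edgeR 4.0.16 in R 4.3.3 (quasi-likelihood test, TMM factors, filterByExpr, Benjamini-Hochberg adjustment, threshold 0.05). The change in member spots was set against that in all other spots and in CA1 spots by interaction terms with the library as a block. DESeq2 1.42.0 served as an alternative, sums and thinning were done in Python 3.11.15, and plots with matplotlib 3.10.9. With 2 libraries a group, exact two-sided permutation gives no p under 0.333, so it was not used. The scripts were tested on simulated data.

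Named genes were the 10 largest rises and 10 largest falls with separate groups and a mean of at least 20 CPM, all markers of hippocampal fields, up to 5 members of every other list by smallest p or the 2 of highest level, the largest interaction terms, and Pdcd10. The 52 lists hold 756 genes, of which 609 reached the count needed for testing in dentate spots. Members low in controls reached it only where the knockouts were high. Counts of rises among low genes are thus partly set by this filter. The members and lists were chosen with earlier results of these data known, so they give no independent support. In the lists, 2 genes with 2 identifiers each and 1 gene not found under its symbol were left out. No doublet caller was run, since a spot is not a cell. Some results of the gene lists are not reported here.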

Additional observations from a re-analysis of the deposited data

Results flagged for a closer look

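The changes of 28 results differed between dentate spots and other tissue of the same libraries by the interaction test, and each is given as the change in dentate spots minus the change elsewhere, on the log2 scale. No explanation was tested for them.

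Against all other spots, the change in dentate spots was higher for Penk (4.15), Fmod (3.78), Col6a1 (3.33), Gpx3 (3.24), Tmc6 (3.02), Rgs4 (2.97), Rprm (2.93) and Gpr83 (2.92). It was lower for Capn3 (-3.41), Matn2 (-2.78), Mcm6 (-2.39), Pdyn (-2.32), Gfra2 (-2.28), Prdm8 (-2.16), Doc2b (-2.12) and Bhlhe22 (-2.10).

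Against CA1 spots, it was higher for Fmod (4.47), Lhx9 (4.33), Spp1 (4.06), Tmc6 (3.97), Col6a1 (3.78) and Dcn (3.71), and lower for Capn3 (-4.52), Pdyn (-4.19), Mcm6 (-3.09), Pkp2 (-2.92), Matn2 (-2.80) and Npy2r (-2.73). The values of Lhx9 and Dcn come with changes in CA1 spots, since neither gene was called in dentate spots.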

How the results depend on the processing

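Of 219 named genes called in dentate spots, 150 were called with the same sign under each of 17 alternatives, 69 missed the threshold under at least 1 and 1 changed sign. Of 28 interaction results, 20 were called with the same sign throughout. The 3157 calls became 1364 under DESeq2, 1197 with spots thinned to 5000 UMIs, 1801 with spots chosen after thinning (an alternative chosen after seeing the data) and 1871 to 3389 with 1 library left out, the lowest without knockout 2. Against other spots the 2014 calls became 836, 479, 1095 and 917 to 1804 in the same order. Against CA1 spots the 632 calls became 118 under DESeq2, 117 after thinning and 359 to 652 with 1 library left out. Calls among 609 list genes went from 305 to 198 under DESeq2, 175 after thinning and 225 to 347 with 1 library left out. Thinning leaves fewer UMIs and fewer genes to test (7982 against 11995), and the cause of the other shifts was not tested.

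Signs changed for Bok after thinning (0.077), for Tcf7l2 without control 1 (-0.68, against 2.07 without control 2) and for the difference of Capn3 against CA1 spots after thinning (0.19). The replicate block gave 3074 calls in dentate spots and 307 among list genes. Same-numbered libraries did not deviate together across genes (correlation -0.10). No slide or batch is named in the labels used here, and this 1 correlation cannot exclude a shared one. The shallower knockout spots limit what can be called among low genes.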

Other observations

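Outside the lists discussed above, the summed level of the neocortex markers in dentate spots was 265 and 279 CPM in controls and 1124 and 1161 CPM in knockouts, with 2 of 9 tested genes higher and 3 lower. Rprm, described above, is a member of this list and made up 942 and 983 CPM of the knockout sums, all without TMM factors. Inhibitory interneuron markers had 1 rise and 3 falls among 12 genes. Of 17 cholesterol synthesis genes 2 fell and none rose, and of 16 glycolysis genes 3 rose and 1 fell, among them Pfkp, a phosphofructokinase, which rose from 109 and 106 CPM to 217 and 217 CPM. The shares of all genes were 13.6% higher and 12.7% lower, with the cholesterol falls near the latter, and these counts are given as values only.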
